A study of Mus musculus with 2 samples.

Results

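The Mir183, Mir96 and Mir182 genes encode 3 microRNAs from a single locus on mouse chromosome 6, and they are described here in the gastrocnemius, the large calf muscle. They were chosen by name, as the rows of the deposited tables whose Ensembl identifiers map to these symbols in the GENCODE M21 annotation, which gave 3 of 2202 microRNA genes. The 2 libraries, replicates 1 and 2, came from total RNA of B6CASTF1/J males aged 36 days, that is F1 crosses between a C57BL/6 laboratory parent and a parent of the wild-derived CAST strain. No treatment or engineered allele is given, the labels describe 2 different males, and both libraries form 1 group. The cluster was taken up because its counts were already known to differ between the 2 libraries. Its levels and its ratio are therefore given as a description with no test.

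The miR-183 cluster is transcribed as a shared primary RNA that is cut into hairpins and then into mature microRNAs. It is best known from sensory cells, among them the hair cells of the inner ear, photoreceptors, olfactory neurons and the sensory neurons of dorsal root ganglia, whose axons also reach skeletal muscle. A mature microRNA recognises target transcripts mainly through its seed, bases 2 to 8 from the 5′ end. In skeletal muscle, miR-182 has been described as a repressor of FoxO3, a transcription factor of muscle atrophy, and in lymphocytes as a microRNA of the activated state.

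The mature sequences are shown first because their seeds set which members can share targets, and because a sequence shared with another locus could lower a count. All 3 genes were matched in the RefSeq table of GRCm38.p6, which gives both arms of each hairpin. The arms are printed 5′ to 3′, with the seed in capitals.
miR-183-5p: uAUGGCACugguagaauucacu
miR-96-5p: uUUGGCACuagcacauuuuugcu
miR-182-5p: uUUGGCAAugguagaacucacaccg
miR-183-3p: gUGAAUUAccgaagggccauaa
miR-96-3p: cAAUCAUGuguagugccaauau
miR-182-3p: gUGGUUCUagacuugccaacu

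The 5p arms resembled each other but carried 3 different seeds. Aligned from the first base without gaps, miR-183-5p and miR-182-5p were identical at 18 of 22 bases, whereas miR-183-5p and miR-96-5p were identical at 13 of 22. miR-96-5p and miR-182-5p were identical at 12 of 23. Within the 7 bases of the seed the order differed. The seed of miR-96-5p matched that of miR-183-5p at 6 of 7 bases and that of miR-182-5p at 6 of 7, and the seeds of miR-183-5p and miR-182-5p matched at 5 of 7. No pair of members therefore shares a whole seed. The 3p arms have seeds unlike those of the 5p arms.

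Among 1738 mature sequences in the RefSeq table, 2 others carry the seed of a member arm. miR-1271-5p, from Gm24195 on chromosome 13, has the seed of miR-96-5p, and its sequence is given for comparison.
miR-1271-5p: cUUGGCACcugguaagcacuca
Gm24195 had no counted read in either library, and at this depth a zero leaves room for 0.726 CPM in the library of replicate 1 and for 0.932 CPM in that of replicate 2. CPM is a gene's count per 1000000 reads counted on the strand of a microRNA gene, and these limits, like all intervals here, cover counting error only: reads copied by PCR were counted as if independent. miR-3475-5p has the seed of miR-96-3p, and Mir3475 had 7 counts in replicate 1 and 10 in replicate 2. No other mature sequence in the table carries the seed of miR-183-5p or miR-182-5p.

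The hairpins are printed next because a read with more than 1 possible locus was presumably left uncounted, although the counting program is not stated. The uniqueness of a hairpin then bears on its count. The 2 mature arms of each are in capitals.
Mir183: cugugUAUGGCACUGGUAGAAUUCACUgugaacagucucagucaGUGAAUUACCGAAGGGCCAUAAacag
Mir96: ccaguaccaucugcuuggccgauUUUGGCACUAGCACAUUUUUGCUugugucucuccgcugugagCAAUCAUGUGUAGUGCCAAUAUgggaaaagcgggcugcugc
Mir182: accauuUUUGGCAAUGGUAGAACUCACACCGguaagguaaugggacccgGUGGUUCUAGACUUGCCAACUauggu
The RefSeq hairpins equal the GENCODE transcripts letter for letter. The longest stretch shared with any other counted hairpin, on either strand, was 14 bases for Mir183, 11 for Mir96 and 11 for Mir182. Each of the 6 arms occurs in 1 annotated gene. The members are thus encoded once among annotated transcripts, and the rest of the genome was not searched. The deposited counts combine the 2 arms of a hairpin, so nothing below separates 5p from 3p reads.

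All 3 hairpins lie on the minus strand of chromosome 6 in mm10, and no other annotated gene overlaps any of them. Mir183 (ENSMUSG00000065619.2) runs from 30169668 to 30169737, Mir96 (ENSMUSG00000065586.1) from 30169446 to 30169551 and Mir182 (ENSMUSG00000076361.1) from 30165918 to 30165992. In the direction of transcription Mir183 comes first, Mir96 follows after 116 bases, and Mir182 follows after a further 3453 bases, a span of 3820 bases in all. Rncr4, a noncoding RNA known from the retina, starts 3156 bases upstream of Mir183 on the opposite strand. The nearest protein-coding gene is Nrf1, a transcription factor of mitochondrial genes, which ends 12460 bases beyond Mir182. No other counted microRNA gene lies within 50 kb.

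**Figure D1:**
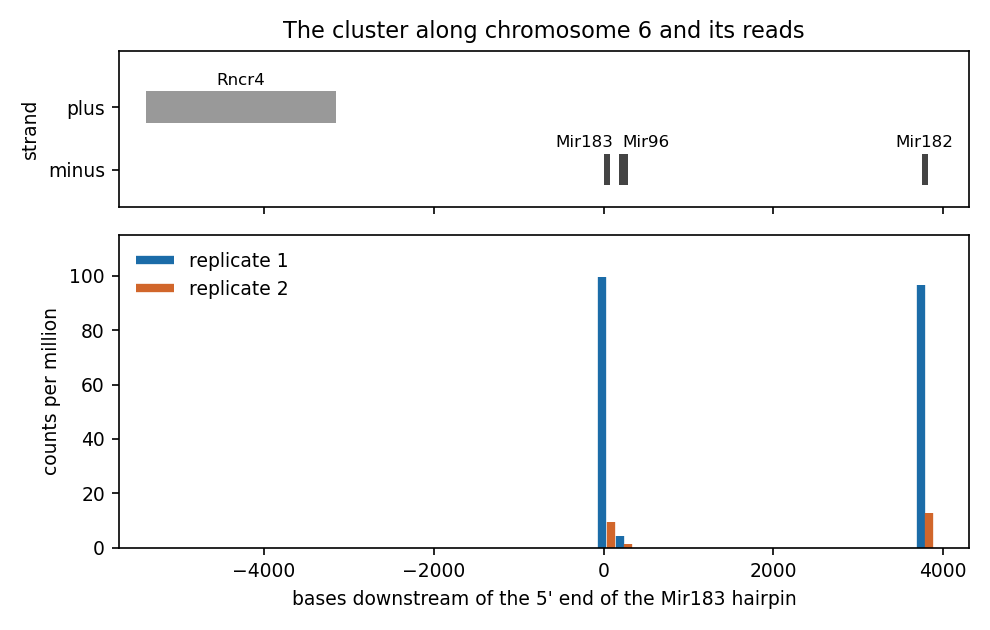
The upper panel maps the 3 hairpins and Rncr4 by strand against distance, in bases, downstream of the 5′ end of the Mir183 hairpin. The lower panel gives each member's CPM in replicate 1 (blue) and replicate 2 (orange), with paired bars drawn side by side about the hairpin's middle. Mir183 and Mir182, at the ends of the locus, stand near 100 CPM in replicate 1, while Mir96 beside Mir183 stays below 5 CPM.

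Reads counted on a microRNA gene's own strand numbered 4134880 in replicate 1 and 3219740 in replicate 2, which is 20.96% and 19.2% of all reads. A further 70.4% and 73.3% aligned to several loci. As a check of the tissue label, Mir206, the skeletal muscle microRNA, reached 27262 ± 2019 CPM (SD, n = 2) and made up most of the striated muscle list, whose 9 genes summed to 27367 CPM (replicate 1) and 30442 CPM (replicate 2). Of the others, Mir486 (881 CPM), Mir1a-2 (331), Mir499 (266) and Mir208b (109) exceeded the mean of Mir183 given below. Mir133a-1 (24.5), Mir1a-1 (13.6), Mir133b (13.4) and Mir133a-2 (3.28) were lower, and these 4 share 21 bases or more with another hairpin. Mir1a-2 also shares 28 bases with Mir1a-1. The counts of all these genes can miss reads, so the share of Mir206 in the list may be too high.

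Mir183 and Mir182 were present at a low level and Mir96 was close to the limit of detection. Mir183 had 412 counts in replicate 1 and 31 in replicate 2. That is 99.6 CPM (95% exact Poisson interval 90.2 to 109.7) and 9.63 CPM (6.54 to 13.7), or 54.6 ± 63.6 CPM (SD, n = 2). Mir183 was high in replicate 1 and low in replicate 2, and the SD exceeded the mean.

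Mir182 followed the same course. Its 399 counts in replicate 1 gave 96.5 CPM (87.3 to 106.4), and its 41 counts in replicate 2 gave 12.7 CPM (9.14 to 17.3). The mean was 54.6 ± 59.2 CPM (SD, n = 2). Mir183 and Mir182 stood next to each other in the order of mean CPM, in places 192 and 193, and their intervals overlapped in each library, so neither ranked above the other.

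Mir96, the member between them, had 18 counts in replicate 1 and 5 in replicate 2. That is 4.35 CPM (2.58 to 6.88) and 1.55 CPM (0.504 to 3.62), with a mean of 2.95 ± 1.98 CPM (SD, n = 2) in place 303. It too was lower in replicate 2, but the intervals of the 2 libraries overlapped. In place by count, Mir183 moved from 169 to 260 between replicate 1 and replicate 2, Mir182 from 170 to 244 and Mir96 from 290 to 338.

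The 3 genes together took 829 counts, or 200.5 CPM (187.1 to 214.6), in replicate 1. In replicate 2 they took 77, or 23.9 CPM (18.9 to 29.9). In percent of counted reads this was 0.0200 and 0.00239. Mir206 exceeded the summed cluster 129-fold in replicate 1 and 1200-fold in replicate 2. The mature arms are of similar size (21 to 25 bases), and these levels were compared as read counts, without dividing by hairpin length.

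**Figure D2:**
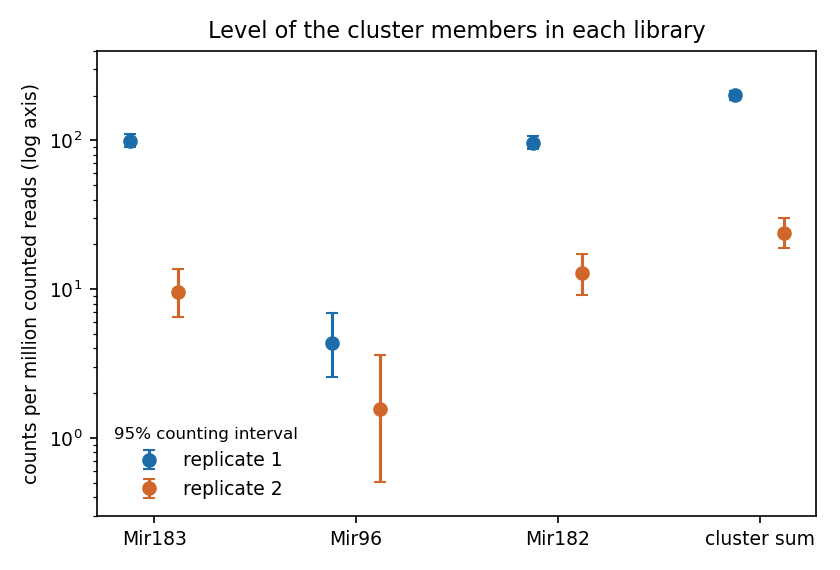
CPM on a log axis for each member and for their sum, in replicate 1 (blue) and replicate 2 (orange), with 95% exact Poisson counting intervals. The intervals of Mir183, Mir182 and the sum are separate between the libraries, and those of Mir96 overlap.

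Within the cluster, the reads divided almost evenly between Mir183 and Mir182. Of the 829 cluster reads of replicate 1, Mir183 held 49.7% (exact Clopper-Pearson 95% interval 46.2 to 53.2), Mir182 48.1% (44.7 to 51.6) and Mir96 2.17% (1.29 to 3.41). Of the 77 of replicate 2, Mir183 held 40.3% (29.2 to 52.1), Mir182 53.2% (41.5 to 64.7) and Mir96 6.49% (2.14 to 14.5). For every member the intervals of the 2 libraries overlapped, which is no test of their difference. These shares do not depend on how the libraries are scaled.

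Mir96 was far below its neighbours although it lies 116 bases from Mir183. Mir183 exceeded it 22.9-fold in replicate 1 (14.3 to 39.0) and 6.20-fold in replicate 2 (2.39 to 20.4). Mir182 exceeded it 22.2-fold (13.8 to 37.8) and 8.20-fold (3.24 to 26.6). Over the 2 libraries the log2 ratio of Mir183 over Mir96 was 3.57 ± 1.33 and that of Mir182 over Mir96 was 3.75 ± 1.01 (SD, n = 2). The log2 ratio of Mir183 over Mir182 was −0.18 ± 0.32, smaller than its SD.

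Unequal members were common among other microRNA clusters of this muscle. Counted microRNA genes on 1 strand, no more than 10 kb apart and with at least 5 counts in each library, formed 14 clusters of at least 3 genes. The most abundant member of the miR-183 cluster exceeded the least abundant 18.5-fold by mean CPM, which placed it eighth of 14 in rising order, beside a median of 17.0-fold. Members with a copy elsewhere can be undercounted in the other clusters, so their ranges are uncertain. The clusters also held from 3 to 33 genes, and a range can widen with more members. Mir96, with 5 counts in replicate 2, only just met the minimum.

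The question that the 2 libraries can address is how far single libraries of 2 males of the same age and genotype differed at this locus. Mir183 was 10.3-fold lower in replicate 2 by CPM (95% conditional counting interval 7.18 to 15.4) and Mir182 was 7.58-fold lower (5.49 to 10.7). Had replicate 2 held the same share of Mir183 as replicate 1, it would have held 321 counts in place of 31, and for Mir182 it would have held 311 in place of 41. Mir96 was 2.80-fold lower (1.00 to 9.66), with 5 counts against the 14.0 that the share of replicate 1 would give. Under the TMM scaling used below, Mir96 was 2.50-fold lower, and its interval (0.893 to 8.60) included no difference. By CPM the summed cluster was 8.38-fold lower (6.63 to 10.7). These intervals leave out the variation between animals and between sample preparations. The 2 cannot be told apart here, since each animal is 1 library.

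The ratios of Mir183 and Mir182 differed by less than their counting error. The log2 ratio of Mir183 over Mir182 differed by −0.45 (replicate 2 minus replicate 1), with a 95% interval from −1.20 to 0.29. The matching difference was −1.88 for Mir183 over Mir96 (−3.49 to 0.001) and −1.43 for Mir182 over Mir96 (−3.01 to 0.43). Whether Mir96 moved less than its neighbours could not be read from 5 counts.

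To set the members beside all genes, log2 ratios of replicate 2 over replicate 1 were formed from CPM + 1 after TMM scaling, keeping genes whose mean reached 10 CPM. The ratio was −3.08 for Mir183 and −2.67 for Mir182, and −2.85 for the summed cluster. Mir96, at −0.95, did not reach 10 CPM and is not among the 261 genes compared. Over those genes the median ratio was −0.05, the median absolute ratio 0.18, and 5% of genes lay below −0.98. A 2-fold difference, lower in replicate 2, was passed by 13 genes (4.98%), among them Mir183 and Mir182, and by 1 gene (0.383%) in the other direction. Since the cluster was chosen for this difference, its place as the 2 lowest ratios is a description. Scaling to total counts put the median of all genes at −0.21, and relative to that shift the members' ratios were much the same (−3.24 for Mir183 and −2.83 for Mir182).

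No other gene of like mean CPM reached the members' ratios, which is a description, since the cluster was chosen for this difference. The members' means came mostly from replicate 1. In replicate 2 Mir183 (9.63 CPM) and Mir182 (12.7 CPM) lay below 30 CPM, and Mir183 was also below the 10 CPM minimum. Of 52 other genes with a mean between 30 and 100 CPM, 32 had a log2 ratio below 0. Their median was −0.10 and their range ran from −1.70 to 0.80. Mir700, next above the members in mean CPM, had 292 and 135 counts (log2 ratio −0.57), and Mir7689, next below, had 222 and 169 (0.13). Around Mir96, Mir3069 had 18 and 6 counts and Mir8114 had 11 and 10. Mir96 thus had counts much like those of Mir3069, its neighbour in abundance.

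**Figure D3:**
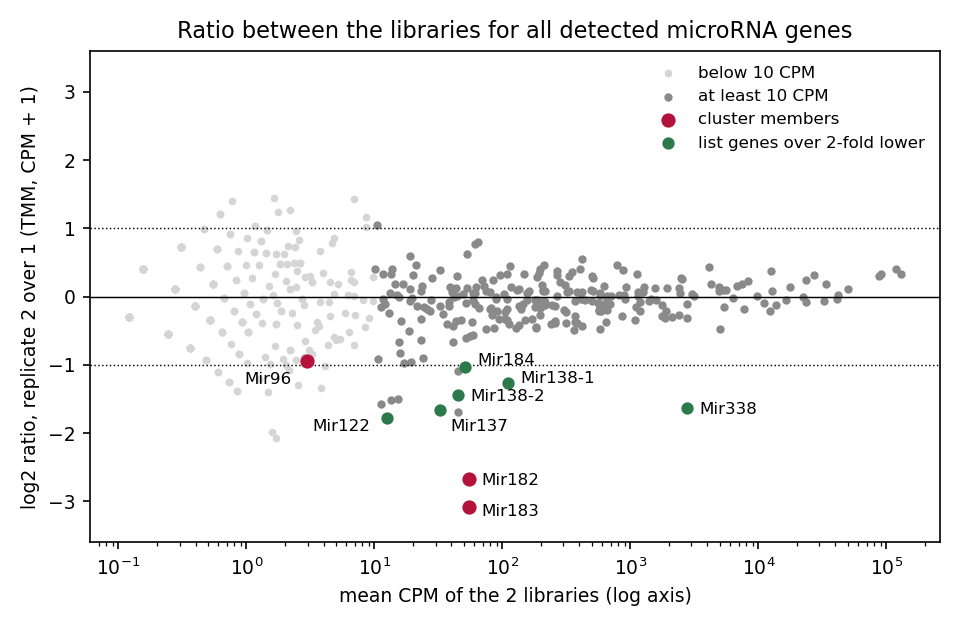
Each point is a microRNA gene with a read, by mean CPM (log axis) and by log2 ratio of replicate 2 over replicate 1 (TMM, CPM + 1), with dotted lines at a 2-fold difference. Mir183 (−3.08) and Mir182 (−2.67), in red, lie below all other genes of at least 10 CPM. Mir96 (−0.95), also red, lies among other genes with few counts. Green points are marker genes of at least 10 CPM that were over 2-fold lower in replicate 2.

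The genes whose ratio was nearest to that of the summed cluster were still more than 1 log2 unit away. They were Mir122, a liver microRNA (log2 ratio −1.78, 1.07 away), Mir3107, which lies opposite Mir486 (−1.70, 1.16 away), and the neuronal Mir137 (−1.67, 1.19 away). Mir338, a microRNA of myelinating glia, followed (−1.63, 1.23 away) with the X-linked Mir363 (−1.57, 1.28 away). This likeness rests on 2 libraries alone, and any gene lower in replicate 2 shares it.

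Neighbours in a genomic cluster mostly kept close ratios. Among 94 pairs of adjacent genes on 1 strand within 10 kb, both of at least 10 CPM, the median absolute difference between the 2 log2 ratios was 0.16. For Mir183 and Mir182 it was 0.42, and 14 pairs differed by more. This pair counts as adjacent only because Mir96, which lies between its genes, did not reach 10 CPM. The median absolute ratio over all 261 genes was itself only 0.18, and pairs of genes that are not neighbours were not compared. Of the 14 clusters of at least 3 genes, the summed miR-183 cluster had the lowest log2 ratio (−2.85), followed by the X-linked cluster from Mir363 to Mir106a (−1.07), and the other 12 lay between −0.23 and 0.13. In that X-linked cluster the members ranged from −1.57 to 0.19.

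Because sensory axons, their myelinating glia and other cells could be present in a muscle sample, marker lists of other cells are given beside the cluster. In a tissue sample, fewer cells of a type and less RNA per cell cannot be told apart. The myelinating glia list (3 genes) summed to 4297 CPM in replicate 1 against 1244 CPM in replicate 2, that is 3.45-fold lower (3.34 to 3.58), and thus moved the same way as the cluster but less far.

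Mir338, which lies in an intron of the neuronal kinase gene Aatk and marks oligodendrocytes and Schwann cells, made up nearly all of that list. It had 17718 counts in replicate 1 and 3980 in replicate 2, and was 3.47-fold lower in replicate 2. The glial Mir219a-2 had 38 and 15 counts, while its second locus Mir219a-1 had 13 and 11. These 2 loci share 22 bases, so their counts can miss reads that align to both.

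The neuronal list (18 genes) summed to 1485 CPM (replicate 1) and 1214 CPM (replicate 2), or 1.22-fold lower (1.18 to 1.27). That fold depends on scaling, and after TMM scaling the log2 ratio of the summed list was only −0.12. The members of the list split. Of the 6 genes that reached 10 CPM, 3 (Mir137 and the 2 loci of a single microRNA, Mir138-1 and Mir138-2) passed 2-fold, all lower in replicate 2. Over all genes compared the share was 4.98%. The 6 genes' median log2 ratio was −0.62, beside −0.05 over all 261 genes. Mir137, a microRNA of neuronal maturation, had 211 and 44 counts (log2 ratio −1.67).

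Mir138-1 and Mir138-2, which encode a microRNA of dendrites and axons, had 673 and 192 counts (−1.27) and 281 and 70 counts (−1.44), and the pair shares 24 bases. The other 3 had log2 ratios of 0.02 for Mir128-1, 0.11 for Mir128-2 and 0.17 for the activity-dependent Mir132, and the first pair turned to −0.15 and −0.05 under scaling to total counts. Mir128-1 and Mir128-2 share 23 bases, so their counts can miss reads that align to both. The defining neuronal genes Mir124a-1, Mir124a-2, Mir124a-3, Mir9-1, Mir9-2 and Mir9-3 all had 0 counts in both libraries. Their hairpins each have a stretch of 26 bases or more in common with a further hairpin, and a zero there is no sign of absence. Mir153, which shares no more than 10 bases, had 2 counts and 1 count. Of the other low members, Mir218-2 (6 and 11 counts), Mir218-1 (2 and 4) and Mir129-1 (3 and 4) had more counts in replicate 2. Mir212 (17 and 11) and Mir129-2 (5 and 3) had fewer, and none of these reached 10 CPM.

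The retina and lens list summed to 231.7 CPM (replicate 1) and 157.8 CPM (replicate 2). Mir184, known from lens and cornea, had 295 and 99 counts (log2 ratio −1.02, or −0.97 with DESeq2 size factors, short of 2-fold). Mir204, also expressed in retinal pigment epithelium, had 645 and 394 (−0.18), and Mir211 had 18 and 15. Mir184 was thus 1 of the 13 genes (4.98%) over 2-fold lower, and Mir211 was below 10 CPM.

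The remaining lists differed less between the libraries, and the sign for epithelium, red cells and liver differed between CPM and TMM scaling. Epithelium and skin summed to 237.5 and 215.9 CPM, led by Mir203 with 908 and 668 counts. Its low members Mir200c (27 and 11), Mir200b (13 and 6) and Mir205 (15 and 4) had fewer counts in replicate 2. So did Mir429 (11 and 1), Mir141 (6 and 4) and Mir200a (2 and 1), and none reached 10 CPM. Replicate 2 also had fewer counted reads in all. After TMM scaling the log2 ratio was −0.03 for Mir141 and −0.13 for Mir200a, and the other low members lay between −1.40 and −0.42. Endocrine genes summed to 52.2 and 45.0 CPM, led by Mir7-1 with 192 and 134 counts. The sign for Mir7-1 also depended on scaling (log2 ratio 0.01, or −0.15 under scaling to total counts).

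Leukocyte genes, of interest because miR-182 is known in lymphocytes, summed to 2326 and 2425 CPM. Mir155 had 2941 and 2806 counts, Mir150 had 2026 and 1706, Mir146 had 1973 and 1685, and Mir223 had 1803 and 967. Mir142 had 876 and 643 counts. Mir223 had a log2 ratio of −0.37, and the other 4 lay between 0.08 and 0.46, with a median of 0.28 over the list. Red cell genes summed to 404.8 and 393.5 CPM, and liver genes to 90.0 and 80.4 CPM, although the liver gene Mir122 itself had 85 and 15 counts (log2 ratio −1.78). After TMM scaling the log2 ratios of the summed lists were 0.03 for epithelium, 0.13 for red cells and 0.01 for liver, where CPM gave lower sums in replicate 2.

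Beside the 8.38-fold lower cluster, the summed lists therefore ranged from 3.45-fold lower, for myelinating glia, to the striated muscle list, which was higher in replicate 2. The part of glia, neurons or any other cell type in the difference at the miR-183 locus was not tested. The labels do not say how nerve was handled when the muscle was taken, and the cells that made the cluster's reads are not identified by these counts.

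**Figure D4:**
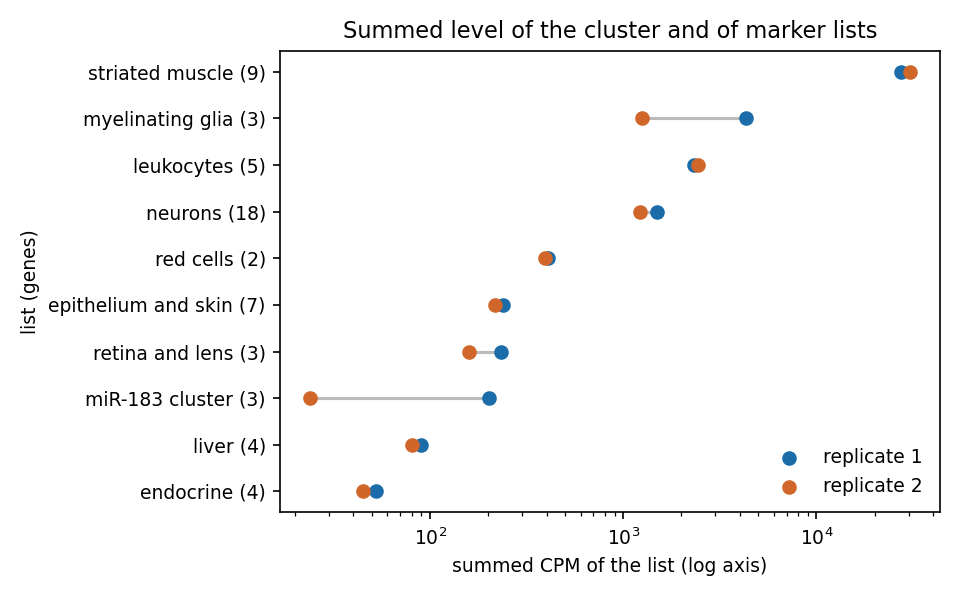
Summed CPM (log axis) of the cluster and of each marker list, with the number of genes in parentheses, in replicate 1 (blue) and replicate 2 (orange). The miR-183 cluster spans 200.5 to 23.9 CPM and myelinating glia 4297 to 1244 CPM, while the other lists lie closer together.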

How the data were processed

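Small RNA libraries of 1 group, 2 male mice, were analysed. Each library has a table from the authors, with unnormalized read counts for every microRNA gene in 3 columns (ignoring strand, the gene's strand, the opposite strand), made on mm10 with GENCODE M21 per the file headers and labels. For the aligner, the counter and the trimming, the sources used here say nothing. Multiply aligned reads have a row of their own, so they are taken to enter no gene's count. Library sizes leave out the 4 rows without a gene.

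The same-strand column was used. CPM, exact Poisson, Clopper-Pearson and conditional intervals (scipy 1.17.1), TMM factors (1.06 and 0.944, edgeR 4.0.16) and DESeq2 1.42.0 size factors were computed, and the ratio and interval code was tested on simulated data. CAST alleles that differ from mm10 may align less well, and this was not examined. With 1 group and 1 library per animal no test was made. Members, 9 marker lists and alternatives were chosen with earlier results of these data known. Genes named are the members, up to 4 leading genes and zeros of each list, the 5 nearest ratios, neighbours in abundance and same-seed genes; Mir153, Mir184, Mir122 and the low members of the lists were partly named after their values were seen.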

Additional observations from a re-analysis of the deposited data

How the results depend on the processing

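All 28 recomputed log2 ratios of the members and their sum were below 0, from −3.24 to −2.70 for Mir183, −2.83 to −2.38 for Mir182, −1.32 to −0.45 for Mir96 and −3.02 to −2.68 for the sum. The 12 recomputed shares of cluster reads stayed within their counting intervals. Ignoring strand changed the members' counts only for Mir182 in replicate 1 (400 against 399), so the shares under that setting could hardly move. The ratios were likewise recomputed from the same or nearly the same reads, so they bear on scaling and pseudocount alone. Per 1000000 of all reads, the mean levels were 11.4 for Mir183, 11.3 for Mir182, 0.605 for Mir96 and 23.3 for the sum, in place of 54.6, 54.6, 2.95 and 112.2 CPM, since most reads align to several loci. The SD of the levels is near or above their mean, so it says nothing of their stability. Genes over 2-fold lower in replicate 2 numbered 29 of 639 (4.54%) with no minimum level, beside 13 of 261 (4.98%) in the main setting. They numbered 17 of 261 (6.51%) under total-count scaling and 12 of 261 (4.60%) with DESeq2 size factors. Ignoring strand they numbered 11 of 245 (4.49%), and with a pseudocount of 5 CPM 11 of 261 (4.21%). With a minimum of 100 CPM, which leaves out Mir183 and Mir182, they numbered 2 of 165 (1.21%). Those over 2-fold higher numbered 12 of 639 with no minimum and 0 of 165 with a minimum of 100 CPM. They numbered 0 of 261 under total-count scaling, 3 of 245 ignoring strand and 0 of 261 with a pseudocount of 5 CPM. Mir183 and Mir182 were among the lower genes in every setting but the minimum of 100 CPM. Without replicate 1 or replicate 2, the level of the sum is 23.9 or 200.5 CPM, and no ratio can be formed. No paired analysis was possible because there is 1 group. The counts of Mir96 limit what can be said of it.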
